A study of Mus musculus with 62 samples.

Results

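The dorsal striatum (DS) of mice given 10 daily saline injections (chronic saline) was compared with that of mice given 1 saline injection (acute saline). Members were the 6 RNA-seq libraries that the labels assign to these groups, 3 chronic (mice 2, 3 and 6) and 3 acute (mice 2, 4 and 6), of 62 in the series. All were male C57BL/6J mice of 8 to 10 weeks, injected intraperitoneally and killed 4 h after the last injection, and poly(A) RNA came from tissue cored from frozen coronal slices. No ethanol was given to these mice. Their saline matched the volume given to the ethanol mice of the study, which received 2 g/kg once or on 10 days. Both groups were thus injected, and no mice without an injection were used here. The number of injections and the number of days of handling cannot be told apart in this design, and age was given for all mice together, not by group.

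Immediate early genes are transcribed within minutes of strong synaptic activity, without new protein synthesis. Calcium entry acts on transcription factors that are already bound at their promoters, among them CREB at cyclic AMP response elements and serum response factor at CArG boxes. Their products include transcription factors such as Fos and Egr1, synaptic proteins such as Arc, and phosphatases that switch the kinase signal off again. In the striatum they are widely used as a record of recent stimulation and stress.

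Each gene of the 6 libraries had a deposited read count, and the totals ran from 8149628 to 14160919 counts. The library of chronic saline mouse 2 stood apart, since chromosomes 7, 8, 9, X, Y and MT were empty in it, as was chromosome 6 beyond the gene that starts at position 22875501 (GRCm39). Tests therefore used chromosomes 1 to 5 and 10 to 19, which hold 38691 of 56415 genes and from 6675810 to 9622637 counts a library, and 14470 genes passed the low-count filter. Levels are CPM, a gene's share of the counts on these chromosomes scaled to a common total and adjusted between libraries. Genes that define striatal projection neurons were abundant in all 6 libraries (Drd1 had at least 2228 counts and Penk at least 8785), and Slc6a3, the dopamine transporter, had at most 2 counts. Ddc and Slc18a2, also of dopamine neurons, had 57 to 134 and 12 to 50 counts. Tbr1 of pallial excitatory neurons had 141 to 613 counts. Of thalamic genes, Prkcd had 100 to 635 and Gbx2 at most 12. Scaled over all DS libraries, the sum of 6 pallial genes was 138 to 165 CPM in acute and 106 to 214 CPM in chronic saline mice. It was 24.8 to 42.2 CPM in acute and 25.1 to 69.8 CPM in chronic ethanol mice.

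The edgeR quasi-likelihood test with Benjamini-Hochberg adjustment called 0 of 14470 genes (0%) at an adjusted p under 0.1, and the lowest adjusted p was 0.307. At an unadjusted p under 0.05 the same test listed 1269 genes (8.77%), of which 525 (3.63%) were lower and 744 (5.14%) higher after 10 injections. The DESeq2 test, which the study's methods name, called 117 genes (0.809%), 45 lower and 72 higher. Individual libraries moved these counts. Without chronic mouse 2 edgeR called 464 of 14206 genes (3.27%) and DESeq2 627 (4.41%), and 109 of the 117 genes that DESeq2 called with 6 libraries were among the 464. Without acute mouse 4 edgeR called 2 genes, and without chronic mouse 3 it called 3. DESeq2 called 67 genes without acute mouse 2, 33 without acute mouse 4 and 14 without acute mouse 6. Since edgeR called no gene with all 6 libraries, what follows gives levels and unadjusted counts, and names the call of another fit where there was one.

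**Figure D1:**
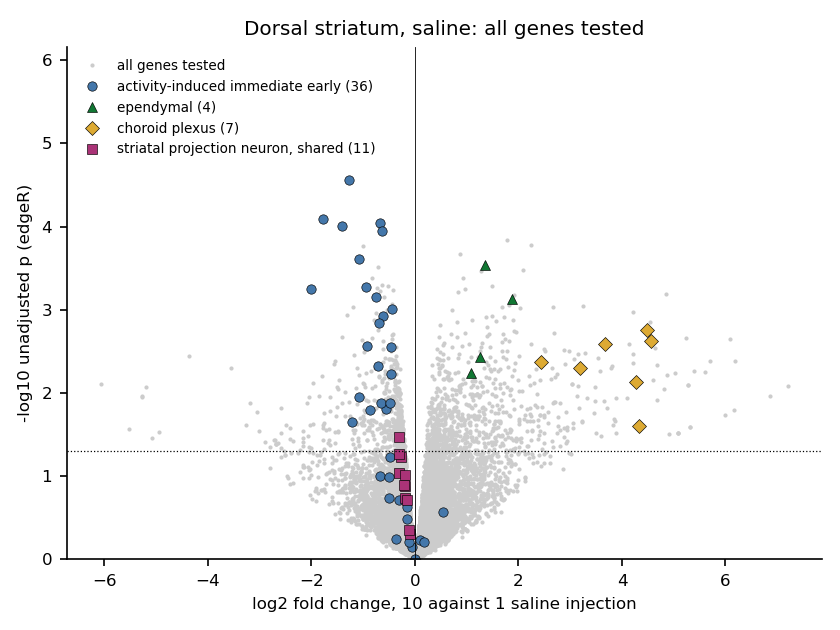
Each point is 1 of the 14470 genes tested, at its log2 fold change of 10 against 1 saline injection and its -log10 unadjusted p from edgeR, with the dotted line at 0.05 and 4 gene lists in colour. The 36 activity-induced genes lie mainly to the left of 0 (32 of 36), and the 4 ependymal and 7 choroid plexus genes lie to the right.

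Activity-induced genes were lower after 10 injections than after 1. Of 36 genes of the immediate early list on these chromosomes, all tested, 22 were lower and 0 higher at an unadjusted p under 0.05, against 3.63% of all genes that were lower. The log2 fold change was negative for 32 of the 36, with a median of -0.59, beside a median of 0.02 over all genes tested. For 20 of the 36 all 3 chronic libraries lay below all 3 acute ones, which was so for 6.99% of all genes. DESeq2 called 14 of them, all lower (0.311% of all genes were called lower). Without chronic mouse 2, edgeR called 13, all lower (1.43% of all genes). The summed level of the 36 genes was 4114, 4324 and 5345 CPM in acute mice 2, 4 and 6, and 2701, 3061 and 2852 CPM in chronic mice 2, 3 and 6. The sums did not overlap, and the exact two-sided permutation test gave p = 0.1, the smallest that 3 against 3 libraries allow. In bulk tissue, fewer cells of a type and less RNA per cell cannot be told apart.

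Arc, whose protein moves glutamate receptors out of the synapse, had the lowest p of all genes. The gene lies at chr15:74540932-74544417 on the minus strand (GRCm39). Its level was 415, 363 and 517 CPM in acute mice 2, 4 and 6, and 136, 221 and 175 CPM in chronic mice 2, 3 and 6. Every chronic library was below every acute one, and the group mean was 2.43-fold lower (178 ± 42.4 against 432 ± 78.0 CPM, SD). The log2 fold change was -1.28 ± 0.18 (SE), with an edgeR unadjusted p of 2.73e-05 and a Benjamini-Hochberg adjusted p of 0.307. DESeq2 gave an adjusted p of 6.44e-09. Over 21 alternatives the adjusted p of Arc ran from 1.42e-24 to 0.863, and 12 of them called it, among them edgeR without chronic mouse 2 (0.0124) and without chronic mouse 3 (0.0799).

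The zinc finger factors of the Egr family, which carry the activity signal on to later genes, were lower in every chronic library. Egr2 was at 46.7, 37.4 and 59.8 CPM after 1 injection and at 9.35, 20.7 and 11.8 CPM after 10. In the edgeR fit it was 3.42-fold lower, a log2 fold change of -1.77 ± 0.28. Egr1 was at 534, 604 and 907 CPM after 1 injection and at 253, 357 and 353 CPM after 10 (-1.09 ± 0.20 on the log2 scale). Egr3 was at 288, 301 and 361 CPM after 1 injection and at 192, 196 and 210 CPM after 10 (-0.67 ± 0.11). The groups did not overlap for any of the 3, and acute mouse 6 held the highest level of each. The edgeR adjusted p was 0.307 for Egr2 and Egr3 and 0.339 for Egr1, while DESeq2 called all 3, with adjusted p of 3.15e-07, 0.000187 and 2.63e-05 for Egr2, Egr3 and Egr1. Over the 21 alternatives, the highest adjusted p of each was 0.863, and 12 called Egr2, 11 Egr1 and 11 Egr3. Without chronic mouse 2 the edgeR adjusted p was 0.0299 for Egr2, 0.0474 for Egr1 and 0.0313 for Egr3, and without chronic mouse 3 it was 0.0747 for Egr2.

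Of the Nr4a orphan nuclear receptors, Nr4a1 was the one called by DESeq2. Its level was 247, 275 and 370 CPM after 1 injection and 83.3, 157 and 94.6 CPM after 10, with no overlap and a log2 fold change of -1.41 ± 0.23 (edgeR adjusted p = 0.307, DESeq2 1.87e-07, and 6.83e-28 to 0.863 over 21 alternatives). The edgeR adjusted p was 0.0333 without chronic mouse 2 and 0.0747 without chronic mouse 3. Nr4a3 was at 54.6, 42.5 and 88.1 CPM after 1 injection and at 14.3, 36.4 and 37.4 CPM after 10. These groups did not overlap either, but DESeq2 gave an adjusted p of 0.601 and edgeR 0.434 (-1.07 ± 0.35), and the range over the alternatives was 1.04e-08 to 0.999. Nr4a2 overlapped between the groups, with its highest level in acute mouse 6 (47.1 CPM) and the other libraries between 14.5 and 19.9 CPM.

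Members of the AP-1 family, which pair to form a transcription factor of the same name, differed in how far the groups lay apart. Fos was at 65.5, 48.4 and 53.9 CPM after 1 injection and at 28.7, 46.6 and 16.1 CPM after 10. The highest chronic library, mouse 3, lay just under the lowest acute one, and the log2 fold change was -0.86 ± 0.30 (edgeR adjusted p = 0.469, and 2.35e-05 to 0.863 over 21 alternatives, of which 3 called it). Fosl2 was at 73.8, 50.0 and 117 CPM after 1 injection and at 13, 34.6 and 12 CPM after 10, with no overlap and 4.01-fold lower in the edgeR fit. For Fosl2 the log2 fold change was -2.0 ± 0.41, DESeq2 gave an adjusted p of 0.0913 and edgeR without chronic mouse 2 gave 0.0791, within 1.59e-31 to 0.863 over 21 alternatives. Jun overlapped between the groups (39.6 to 70.8 against 36.2 to 53.5 CPM).

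Genes on the chromosomes that chronic mouse 2 lacks could be read in 5 libraries only, with CPM there taken over all chromosomes. Junb, another AP-1 member, was at 106, 114 and 128 CPM in acute mice 2, 4 and 6 and at 80.1 and 54.4 CPM in chronic mice 3 and 6. It was called in that edgeR fit (-0.78 ± 0.15 on the log2 scale, Benjamini-Hochberg adjusted p = 0.044), which called 618 of 19473 genes (3.17%), 1.28% lower and 1.89% higher. Egr4 fell there too, from 65.7, 55.0 and 95.3 CPM to 35.3 and 28.5 CPM (-1.17 ± 0.21, adjusted p = 0.036). Fosb was at 30.9, 21.5 and 32.4 CPM against 18.6 and 9.73 CPM and was not called (adjusted p = 0.117), nor was Ier2 (0.494). Egr4, Fosb and Ier2 lie outside the rule for named genes and were named because they complete the list.

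Effector genes of synapse and secretion were lower in part. Vgf, a neurosecretory protein precursor, was at 359, 314 and 358 CPM after 1 injection and at 245, 210 and 209 CPM after 10. Homer1, a postsynaptic scaffold whose short form is made on activity, was at 327, 355 and 449 CPM after 1 injection and at 236, 219 and 283 CPM after 10. Neither overlapped between the groups. The log2 fold change was -0.63 ± 0.10 for Vgf and -0.62 ± 0.14 for Homer1, with edgeR adjusted p of 0.307 and 0.352 and DESeq2 adjusted p of 0.000187 and 0.0162. Over the 21 alternatives the adjusted p ran from 1.82e-08 to 0.863 for Vgf and from 1.84e-05 to 0.863 for Homer1, and edgeR without chronic mouse 2 gave 0.0104 and 0.0937. The counts do not separate the short from the long Homer1 transcripts. Nptx2, a secreted pentraxin that gathers AMPA receptors, was at 40.8, 46.4 and 55.3 CPM after 1 injection and at 37.4, 28.2 and 36.3 CPM after 10, and was not called by DESeq2 (adjusted p = 0.314).

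Members that restrain kinase signalling include phosphatases and Sprouty proteins. Dusp1, a phosphatase of MAP kinases, was at 67.6, 76.8 and 79.5 CPM after 1 injection and at 37.9, 55.2 and 39.4 CPM after 10. Spry2, which restrains growth factor receptor signalling, was at 117, 125 and 125 CPM after 1 injection and at 89.6, 93.8 and 88.2 CPM after 10. Trib1, a pseudokinase, was at 26.3, 23.7 and 30.9 CPM after 1 injection and at 12.9, 16.9 and 12.2 CPM after 10. All 3 were without overlap, and the log2 fold changes were -0.76 ± 0.16, -0.44 ± 0.10 and -0.94 ± 0.19 for Dusp1, Spry2 and Trib1. DESeq2 called Dusp1, Spry2 and Trib1 with adjusted p of 0.0136, 0.0525 and 0.0154, and 9, 7 and 10 of the 21 alternatives called them. The phosphatase Dusp6 and the Sprouty gene Spry4 were likewise without overlap (-0.71 ± 0.20 and -0.92 ± 0.24), with DESeq2 adjusted p of 0.0695 and 0.0811. The phosphatase Dusp5 overlapped, at 25, 13.9 and 24.3 CPM after 1 injection and at 10.6, 14.6 and 19.5 CPM after 10 (-0.50 ± 0.28), and none of the 21 alternatives called it.

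Other members of the list overlapped between the groups. Npas4, a factor induced by calcium entry into neurons, was at 48.5, 56.9 and 58.2 CPM after 1 injection and at 43.2, 61.1 and 59.7 CPM after 10. Its log2 fold change was 0.00 ± 0.15, and its sign turned negative in 14 of the 21 alternatives. Bdnf, the neurotrophin, was at 12.2, 5.78 and 16.1 CPM after 1 injection and at 9.60, 15.2 and 13.6 CPM after 10 (0.18 ± 0.34). Scg2, a granin of secretory vesicles, was at 344, 428 and 348 CPM after 1 injection and at 409, 324 and 277 CPM after 10 (-0.15 ± 0.15). Each of the 3 overlapped between the groups, and the standard errors leave differences of either sign possible for Npas4 and Bdnf.

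**Figure D2:**
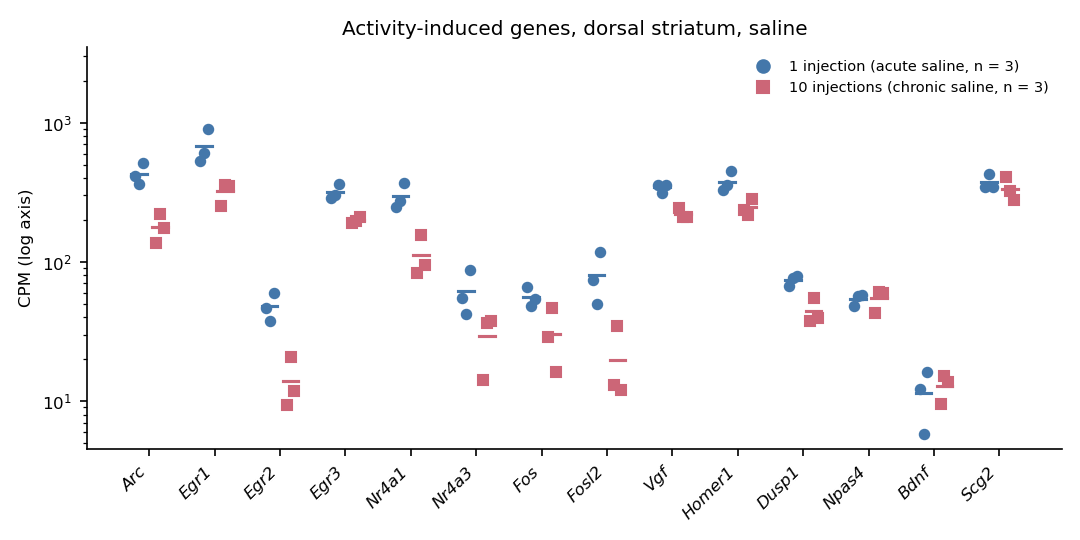
Points are single libraries of 14 activity-induced genes in CPM on a log axis, blue circles for 1 injection (3 mice) and red squares for 10 (3 mice), and short lines are group means. Arc, Egr1, Egr2, Egr3, Nr4a1, Nr4a3, Fos, Fosl2, Vgf, Homer1 and Dusp1 do not overlap between groups, while Npas4, Bdnf and Scg2 do.

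The promoters of these genes were searched for the sites through which activity is known to act, and 31 of the 40 list members had an entry in the RefSeq promoter table. Arc, Egr1, Egr3, Vgf, Spry4, Trib1 and Nptx2 were among those without an entry, so their promoters were not searched. The cyclic AMP response element (CRE) TGACGTCA, which reads alike on both strands, lay within the 250 bases before the start site in 7 of the 31 genes (22.6%), against 478 of 27025 genes in the table (1.77%). Of the 22 members that were lower at an unadjusted p under 0.05, 14 had an entry. The CRE was found in 2 of these 14, Dusp1 and Arl4d, and in 5 of 14 searched among the other tested members. The CArG box, searched on both strands, was found in 2 of the 31 genes (6.45%), Egr2 and Dusp5, against 1.62% of the table. Below are the CRE windows of both genes that were lower (Dusp1 and Arl4d), those of Scg2 and Plk2, which overlapped between the groups, and the CArG window of Egr2, each from RefSeq, 5′ to 3′ on the gene's strand and placed on GRCm39, with the motif in capitals. Dusp1 is at chr17:26727572-26727599 (minus), Arl4d at chr11:101556315-101556366 (plus), Scg2 at chr1:79417794-79417821 (minus), Plk2 at chr13:110531506-110531533 (plus) and Egr2 at chr10:67373601-67373662 (plus). The windows of Dusp1, Scg2 and Plk2 share bases with an annotated exon, while those of Arl4d and Egr2 do not. A match describes the letters of these windows and is no evidence of a bound factor.
Dusp1: gtagggcgggTGACGTCAccgcccggtc
Arl4d: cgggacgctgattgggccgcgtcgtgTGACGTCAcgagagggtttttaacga
Scg2: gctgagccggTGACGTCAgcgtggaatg
Plk2: gcgctcgccgTGACGTCAcgaggccccg
Egr2: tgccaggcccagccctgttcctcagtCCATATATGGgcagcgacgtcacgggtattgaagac

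The CRE therefore stood both before genes that differed between the groups and before genes that overlapped. Arl4d, a small GTPase, was at 63.7, 71.2 and 79.8 CPM after 1 injection and at 50.0, 53.4 and 51.7 CPM after 10, without overlap (-0.47 ± 0.12). Plk2, a kinase that lowers synaptic strength, was at 311, 415 and 381 CPM after 1 injection and at 300, 346 and 351 CPM after 10, with overlap (-0.15 ± 0.12). DESeq2 called neither (adjusted p = 0.135 for Arl4d and 0.906 for Plk2). Over the 21 alternatives the adjusted p ran from 0.0606 to 0.863 for Arl4d and from 0.627 to 0.999 for Plk2.

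Transcripts of motile cilia were higher after 10 injections in the saline DS libraries. Motile cilia beat on the ependymal cells that line the ventricles and border the striatum. Of the 8 genes of the ependymal list 4 lie on the chromosomes used, and all 4 were higher at an unadjusted p under 0.05 (5.14% of all genes were) and without overlap between groups (8.10% of all genes). Enkur, a cilium protein, was at 3.42, 3.74 and 3.80 CPM after 1 injection and at 9.60, 8.34 and 10.3 CPM after 10. Rsph1, of the radial spoke head, was at 7.74, 5.56 and 3.80 CPM after 1 injection and at 13.5, 14.5 and 34.5 CPM after 10. Foxj1, the master regulator of motile cilia, was at 24.9, 18.6 and 14.4 CPM after 1 injection and at 25.8, 33.9 and 61.6 CPM after 10. Chronic mouse 6 had the highest level of all 3, and chronic mouse 2 stood close to the highest acute library for Foxj1. The log2 fold changes were 1.36 ± 0.25, 1.88 ± 0.40 and 1.07 ± 0.31, and Tmem212 gave 1.25 ± 0.33. DESeq2 called Enkur (adjusted p = 0.0263), Rsph1 (0.00136) and Foxj1 (0.0614) but not Tmem212 (0.145), and edgeR without chronic mouse 2 called all 4 (0.0525, 0.037, 0.0525 and 0.0993). Of the 21 alternatives, 7 called Enkur, 9 Rsph1, 6 Foxj1 and 5 Tmem212.

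The genes of lowest p on the higher side included further cilium genes. Cfap65, of the cilium and flagellum, was at 8.78, 7.27 and 6.76 CPM after 1 injection and at 16.1, 23.5 and 38.5 CPM after 10. Mapk15, a kinase with a role in cilium formation, was at 1.49, 2.14 and 1.16 CPM after 1 injection and at 4.92, 8.12 and 10.0 CPM after 10. Iqcd, of the axonemal dynein regulatory complex, was at 1.19, 1.28 and 0.845 CPM after 1 injection and at 3.69, 5.20 and 5.29 CPM after 10. None of the 3 overlapped between groups, and in the edgeR fit they were 3.43-fold, 4.76-fold and 4.24-fold higher. DESeq2 called Cfap65, Mapk15 and Iqcd with adjusted p of 4.89e-05, 0.00198 and 0.0273, and edgeR without chronic mouse 2 gave 0.0102, 0.0171 and 0.039. Over the alternatives, the highest adjusted p of each was 0.863, and 10 of 21 called Cfap65, 10 of 21 Mapk15 and 6 of 20 Iqcd.

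A wider group was then drawn by symbol after these values were seen, so it is a description: the Cfap, Dnah, Dnai, Dnaaf, Rsph and Drc families. Of 64 genes on the chromosomes used, 62 were tested, 36 were higher and 0 lower at an unadjusted p under 0.05 (5.14% of all genes were higher), 58 had a positive log2 fold change and the median was 0.81. For 24 of the 62 the groups did not overlap, all higher after 10 injections (8.10% of all genes). DESeq2 called 11, all higher (0.498% of all genes were), and edgeR without chronic mouse 2 called 17, all higher (1.84% of all genes). The part of tissue makeup in the levels of the cilium genes was not tested.

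**Figure D3:**
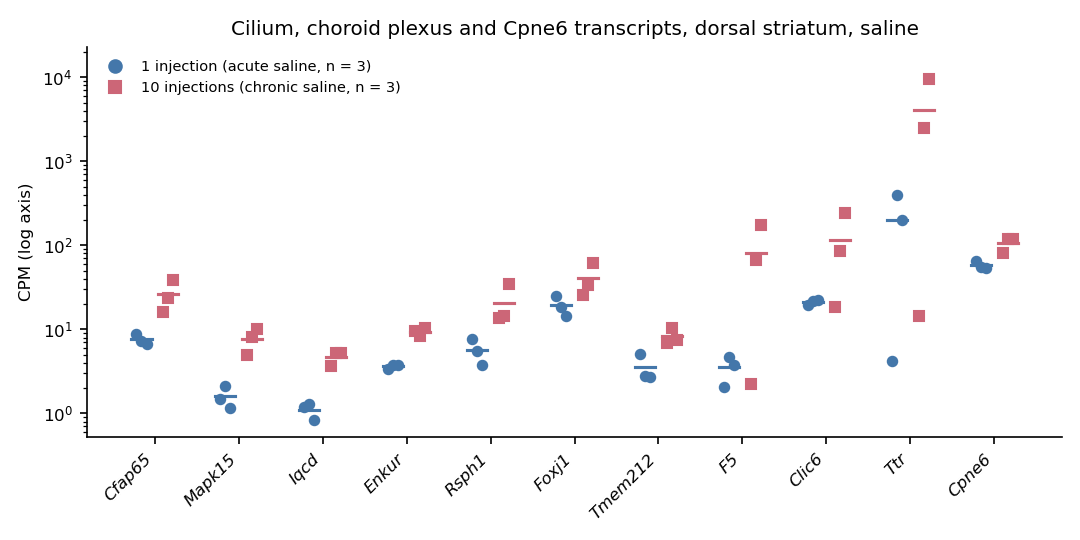
Points are single libraries in CPM on a log axis for 7 cilium genes, 3 choroid plexus genes (F5, Clic6, Ttr) and Cpne6, blue circles for 1 injection (3 mice) and red squares for 10 (3 mice), and short lines are group means. The cilium genes and Cpne6 do not overlap between groups, while for the choroid plexus genes 1 chronic library lies among the acute ones.

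Choroid plexus transcripts, from the tissue inside the ventricles, set the libraries apart in another way. All 7 tested genes of that list were higher at an unadjusted p under 0.05 (5.14% of all genes were), with a median log2 fold change of 4.27, but all 7 overlapped between groups. F5, coagulation factor V, was at 2.08, 4.71 and 3.80 CPM in acute mice 2, 4 and 6 and at 2.21, 66.7 and 176 CPM in chronic mice 2, 3 and 6. Ttr, the thyroid hormone carrier transthyretin, was at 4.17, 393 and 202 CPM in the acute and at 14.3, 2522 and 9578 CPM in the chronic mice. The level was thus high in chronic mice 3 and 6 and not in chronic mouse 2. The sum over the list was 42.3, 438 and 242 CPM in the acute and 44.3, 2871 and 10661 CPM in the chronic mice (exact permutation p = 0.3, where 0.1 is the smallest possible). DESeq2 called 1 of the 7, F5 (adjusted p = 0.0900), beside 0.498% of all genes called higher, and edgeR without chronic mouse 2 called all 7 (1.84% of all genes), with 0.00537 for F5 and 0.0617 for Ttr. Over 21 alternatives the adjusted p ran from 1.88e-102 to 0.863 for F5 and from 3.5e-207 to 0.999 for Ttr.

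The tissue markers were set beside the activity-induced genes library by library. Chronic mouse 2 had a choroid plexus sum of 44.3 CPM, close to that of acute mouse 2 (42.3 CPM), and a summed level of activity-induced genes of 2701 CPM, below all acute libraries and both other chronic ones. The sum of 10 myelin genes was lowest in chronic mouse 2 (4166 CPM, against 6661 to 8253 CPM in the other 5). The sum of 11 projection neuron genes was 13002, 14992 and 13508 CPM in the acute and 11539, 10050 and 13815 CPM in the chronic mice, with overlap (exact permutation p = 0.3). Of the 11, Adcy5, the main adenylyl cyclase of the striatum, was the 1 with an unadjusted p under 0.05 (-0.31 ± 0.13 on the log2 scale), though all 11 log2 fold changes were negative (median -0.20). The part of tissue makeup in the lower activity-induced levels was not tested.

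**Figure D4:**
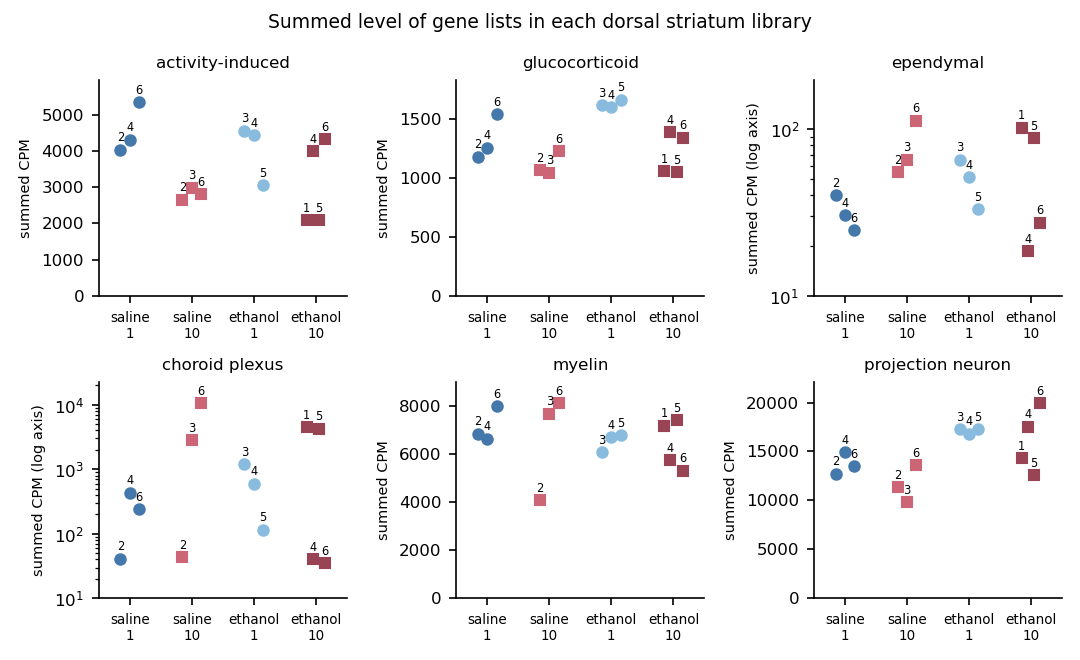
Each point is the summed CPM of a gene list in 1 DS library, numbered by mouse, in saline and ethanol mice given 1 or 10 injections, with log axes for the ependymal and choroid plexus lists. In saline mice the activity-induced sums do not overlap, and chronic mouse 2 is low for choroid plexus as well as for activity-induced genes, whereas among chronic ethanol mice 1 and 5 are high for choroid plexus and low for activity-induced genes.

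Cpne6, a calcium-binding copine of dendritic spines, was among the 5 genes of lowest p on the higher side and is no cilium gene. It was at 65.2, 55.9 and 53.3 CPM after 1 injection and at 82.1, 120 and 118 CPM after 10, without overlap and 1.83-fold higher (0.87 ± 0.16 on the log2 scale). The edgeR adjusted p was 0.339 and that of DESeq2 0.00124, and 10 of 21 alternatives called it, with adjusted p from 3.36e-10 to 0.863. Without chronic mouse 2 edgeR gave 0.0102.

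Genes that answer to glucocorticoids, the stress hormones, were examined as another mark of handling. Of 16 such genes on the chromosomes used, 15 were tested, and 4 were lower and 0 higher at an unadjusted p under 0.05 (3.63% of all genes were lower), namely Dusp1, Mfsd2a, Per1 and Plin4. Dusp1 and Per1 are also in the activity-induced list. Plin4, a lipid droplet protein, was at 12.2, 21.6 and 35.3 CPM after 1 injection and at 2.95, 12.1 and 12.2 CPM after 10, where the groups met at 12.2 CPM (-1.35 ± 0.48). Per1, also a clock gene, was at 140, 213 and 270 CPM after 1 injection and at 132, 145 and 146 CPM after 10, with overlap. Fkbp5, which tempers the glucocorticoid receptor, was at 71.7, 69.1 and 69.8 CPM after 1 injection and at 65.2, 58.9 and 67.1 CPM after 10 (-0.14 ± 0.11). Sgk1, a kinase induced by the hormone, overlapped (-0.07 ± 0.23), as did Cdkn1a, an inhibitor of the cell cycle (-0.37 ± 0.23). The summed level was 1203, 1258 and 1533 CPM after 1 injection and 1083, 1069 and 1242 CPM after 10, with overlap (exact permutation p = 0.2).

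Stress proteins and clock genes were examined in the same way. Of 9 heat shock genes 4 were lower at an unadjusted p under 0.05 (3.63% of all genes were), with Hsph1 at 496, 449 and 525 CPM after 1 injection and at 384, 397 and 409 CPM after 10. Hspa1a was at 49.4, 9.95 and 54.1 CPM after 1 injection and at 12.9, 14.3 and 15.2 CPM after 10. Acute mouse 4 thus lay below all chronic mice, and without it edgeR called Hspa1a and Hspa1b (adjusted p = 0.0127 and 0.00834, within 3.91e-14 to 0.999 and 1.77e-18 to 0.999 over 21 alternatives). Hspa1a and Hspa1b are near-identical copies whose reads can be shared, so they count as 1 signal. Of 15 clock genes 3 were lower at that p, Cry1 (-0.51 ± 0.15), Npas2 (-0.37 ± 0.14) and Per1, which the activity-induced and glucocorticoid lists also hold.

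Of 8 postsynaptic scaffold genes 3 were lower at an unadjusted p under 0.05 (Dlgap3, Shank3 and Homer1, which is also in the activity-induced list), beside 3.63% of all genes. The groups did not overlap for 5 of the 8, all lower after 10 injections, beside 6.99% of all genes. Dlgap3, a scaffold under striatal glutamate synapses, was at 784, 757 and 732 CPM after 1 injection and at 581, 487 and 636 CPM after 10 (-0.42 ± 0.11, DESeq2 adjusted p = 0.0818, and 0.00975 to 0.863 over 21 alternatives). Shank3 was at 484, 489 and 520 CPM after 1 injection and at 348, 348 and 467 CPM after 10 (-0.36 ± 0.12). Of 8 genes for GABA-A receptor subunits 2 were lower at that p, with Gabrb2 at -0.43 ± 0.16, and for 1 of the 8 the groups did not overlap. The orphan receptor Gpr52, of indirect pathway neurons, was lower without overlap (-0.57 ± 0.18), and Drd1, the dopamine receptor of direct pathway neurons, overlapped (-0.28 ± 0.13). Penk, Pdyn, Adora2a and Ppp1r1b, which also mark these neurons, had log2 fold changes of -0.20 ± 0.16, 0.21 ± 0.22, -0.19 ± 0.12 and -0.12 ± 0.15. Lists of opioid genes, ionotropic glutamate receptors, astrocytes, microglia, mature oligodendrocytes, endothelium, ribosomal proteins and the respiratory chain had 0 members under that p in either direction. Of 8 interferon response genes 3 were higher at that p (5.14% of all genes were), led by Ifi27 (0.78 ± 0.24). Of 22 enzymes of histone acetylation and methylation 1 was lower and 3 were higher, led by Hdac7 (0.49 ± 0.17), where 1 of 22 lower is near the share of all genes.

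The same comparison was made in other DS mice, which had received ethanol at each injection (3 mice with 1 and 4 with 10). The edgeR test called 1 of 15107 genes there (0.00662%), Pdzd2, which was at 450, 415 and 400 CPM after 1 injection and at 268, 278, 250 and 259 CPM after 10, without overlap (-0.67 ± 0.07, adjusted p = 0.0226, and 5.53e-14 to 0.479 over 12 alternatives). It called 0 genes without acute ethanol mouse 4 or 5, 4 without acute mouse 3 and 2 without chronic mouse 1 or 4, and 702 genes (4.65%) had an unadjusted p under 0.05, while DESeq2 called 14 (0.0927%). In these mice 3 of 36 activity-induced genes were lower and 1 higher at an unadjusted p under 0.05 (2.59% of all genes were lower and 2.06% higher), and the median log2 fold change was -0.32. Scaled over all DS libraries, the summed level was 4556, 4427 and 3047 CPM in acute ethanol mice 3, 4 and 5, and 2096, 3990, 2085 and 4327 CPM in chronic ethanol mice 1, 4, 5 and 6. Acute ethanol mouse 5, the lowest of the acute ones, was sequenced deeper. It had 31432674 counts on these chromosomes, against 7018380 to 10808512 in the other ethanol DS libraries, and the part of depth was not tested. The chronic ethanol mice split, with mice 1 and 5 low and mice 4 and 6 within the acute range. Of 4 ependymal genes 0 were higher at that unadjusted p in the ethanol mice, and of 62 tested genes of the cilium families 1 was. All 4 ependymal genes (median log2 fold change 0.41) and 50 of the 62 (median 0.38) still had a positive change. On the scale of all DS libraries, the sum of 63 cilium family genes was 1081 to 1168 CPM in acute and 1227 to 1646 CPM in chronic saline mice. It was 1230 to 1380 CPM in acute and 1147 to 1528 CPM in chronic ethanol mice. The ependymal sum was 24.7 to 40.2 CPM in acute and 54.9 to 112 CPM in chronic saline mice. The choroid plexus sum was 4470 and 4240 CPM in chronic ethanol mice 1 and 5 and 40.6 and 35.3 CPM in mice 4 and 6. The ependymal sum was 102 and 88.2 CPM in mice 1 and 5 and 18.6 and 27.5 CPM in mice 4 and 6, against 33.0 to 65.5 CPM in the acute ethanol mice. The projection neuron sum was 14328 and 12594 CPM in mice 1 and 5 and 17536 and 19930 CPM in mice 4 and 6, and the myelin sum was 7183 and 7420 CPM against 5751 and 5311 CPM. The part of these markers in the split was not tested. Arc followed the split, at 35.9 and 59.1 CPM in chronic ethanol mice 1 and 5 and at 279 and 224 CPM in mice 4 and 6, against 356, 347 and 166 CPM in the acute ethanol mice (-0.97 ± 0.56 on the log2 scale).

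The difference between the saline and the ethanol comparison was tested as an interaction over 13 DS libraries. For Arc it was -0.34 ± 0.72 on the log2 scale, for Nr4a1 -0.54 ± 0.85, for Egr1 -0.68 ± 0.56 and for Vgf -0.41 ± 0.26. No gene was called by edgeR (0 of 15416, with 443, or 2.87%, at an unadjusted p under 0.05) or by DESeq2 (0), so a difference from the ethanol mice was not shown, and standard errors of this size leave room for one. Of 4 ependymal genes 0 had a difference at an unadjusted p under 0.05. Of 63 tested genes of the cilium families 3 had a positive and 0 a negative one. In the ethanol comparison 10 of 16 glucocorticoid genes were lower at an unadjusted p under 0.05 (2.59% of all genes were). In the interaction 3 of the 16 had a positive saline-minus-ethanol difference at that p and 0 a negative one, beside 2.87% of all genes in either direction. None of the 16 was called there at an adjusted p under 0.1. Cdkn1a was at 30.9, 58.0 and 55.7 CPM after 1 ethanol injection and at 20.6, 22.1, 20.8 and 15.3 CPM after 10 (-1.29 ± 0.21, edgeR adjusted p = 0.314, and 1.03e-06 to 0.9999 over 12 alternatives). The saline-minus-ethanol difference for Cdkn1a was 0.91 ± 0.33, with an edgeR adjusted p of 0.9998.

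In the ventral striatum (VS) the saline comparison used 3 acute and 3 chronic mice, of which 5 were also DS mice, so it is not an independent set. There 15 of 36 activity-induced genes were lower and 0 higher at an unadjusted p under 0.05 (2.73% of all genes were lower and 3.18% higher), 35 had a negative log2 fold change and the median was -0.66. Markers of other cells moved with injection number in VS as well, with 8 of 10 myelin genes, 3 of 6 mural genes and 2 of 2 red blood cell genes higher at that p. The 2 red blood cell genes, Hba-a1 and Hba-a2, are near-identical copies whose reads can be shared, so they count as 1 signal. The myelin sum was 4425, 4380 and 4741 CPM in acute VS mice 2, 4 and 6 and 4743, 5420 and 6721 CPM in chronic VS mice 3, 5 and 6, and the choroid plexus sum was 4357 CPM in chronic VS mouse 6 against 38.3 to 342 CPM in the other 5. Their part in the activity-induced levels was not tested. Of 4 ependymal genes 0 were higher at an unadjusted p under 0.05 in VS, and of 60 tested genes of the cilium families 1 was higher and 1 lower. All 4 ependymal genes (median log2 fold change 0.71) and 46 of the 60 (median 0.22) had a positive change in VS. The edgeR test called 0 of 14672 VS genes (867, or 5.91%, at an unadjusted p under 0.05, and DESeq2 18, or 0.123%), and 15 without chronic mouse 5. Fosl2 was at 80.7, 58.5 and 136 CPM after 1 injection and at 35.3, 17.4 and 13.7 CPM after 10 in VS, without overlap (-2.04 ± 0.38). Arc was at 293, 188 and 333 CPM after 1 injection and at 211, 47.0 and 184 CPM after 10 there, with overlap (-0.88 ± 0.45). The DS-minus-VS difference for Arc, with the mouse as a term, was -0.70 ± 0.14 (edgeR adjusted p = 0.164, and 5.31e-05 to 0.99996 over 17 alternatives, of which 4 called it, among them those without acute mouse 2 of DS or of VS). In that test all 11 projection neuron genes were more negative in DS, with a median of -0.67. At an unadjusted p under 0.05 this was so for 8 of the 11, beside 8.01% of all genes in either direction. Of the 36 activity-induced genes 10 were more negative and 3 more positive at that p (median -0.18). Of 63 tested genes of the cilium families 16 were more positive and 0 more negative at that p. Of 4 ependymal genes 1 was more positive and 0 more negative. The part of tissue makeup in the Arc difference was not tested.

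The test of the difference between DS and VS called 20 of 15173 genes (0.132%, with 8.01% at an unadjusted p under 0.05, and DESeq2 46, or 0.303%), 13 of them more positive in DS. With the mouse as a term, the 5 mice that gave both regions carry this difference, acute mice 2, 4 and 6 and chronic mice 3 and 6. Chronic mouse 2 had DS only and chronic mouse 5 VS only here, so their mouse terms absorb their values. The same holds for the Arc difference above. Cpne6 was higher after 10 injections in DS and stood lower in VS, at 122, 171 and 171 CPM after 1 injection and 102, 116 and 90.2 CPM after 10. The DS-minus-VS difference was 1.71 ± 0.20 on the log2 scale for Cpne6 (edgeR adjusted p = 0.025, 9.4e-25 to 0.323 over 17 alternatives, of which 10 called it). Trpm3, an ion channel, gave 1.80 ± 0.15 (adjusted p = 0.00275, 2.14e-30 to 0.99996, called in 15 of 17), and Sulf1, a heparan sulfatase, 1.90 ± 0.22 (0.025, 4.04e-21 to 0.99996, called in 10 of 17). In DS both were high in the libraries rich in choroid plexus transcripts, with Trpm3 at 66.3, 195 and 496 CPM and Sulf1 at 18.2, 81.5 and 135 CPM in chronic mice 2, 3 and 6, against 63.4 to 69.5 and 14.6 to 23.7 CPM in the acute mice. The part of choroid plexus tissue in these differences was not tested. The number of calls moved with single libraries, from 381 without acute VS mouse 2 and 369 without acute DS mouse 2, over 12 without chronic DS mouse 2 or chronic VS mouse 6, 10 without chronic VS mouse 5 and 9 without chronic DS mouse 6, to 1 without acute DS mouse 6, chronic DS mouse 3 or acute VS mouse 6 and 0 without chronic VS mouse 3. Without the last, the edgeR adjusted p was 0.104 for Trpm3. The fits without chronic DS mouse 2 or chronic VS mouse 5 rest on the same 5 mice as the main fit.

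**Figure D5:**
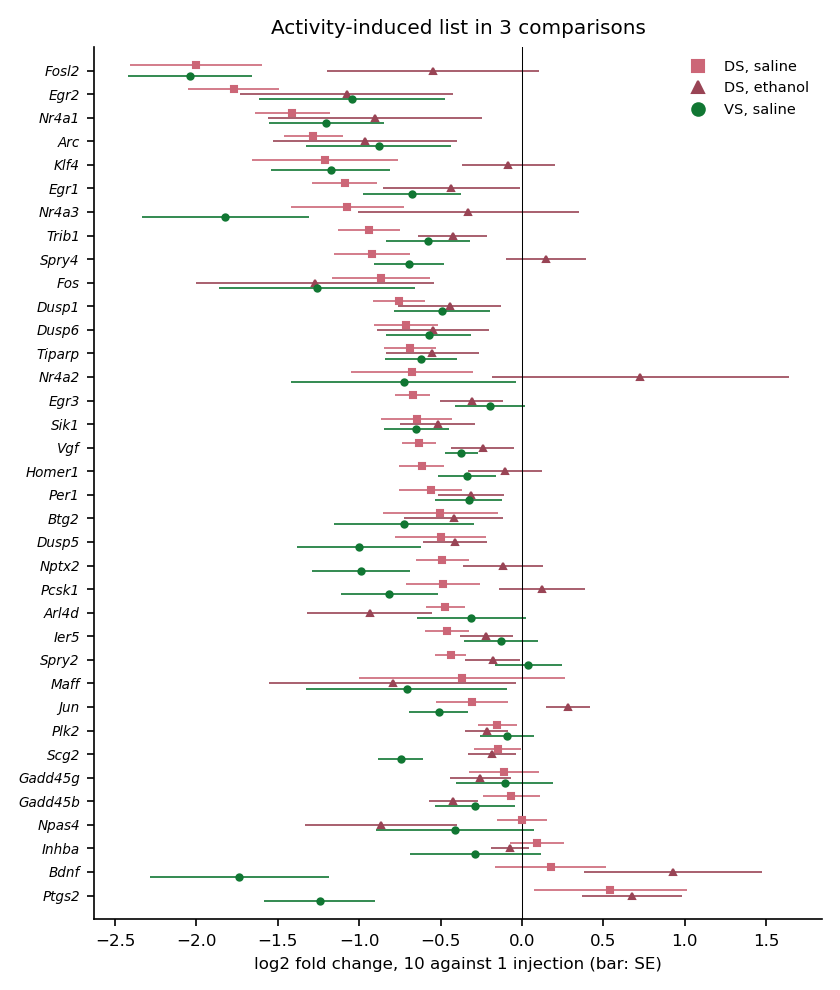
Log2 fold change of 10 against 1 injection for the 36 tested activity-induced genes, with bars of 1 SE, in DS saline mice (red squares), DS ethanol mice (dark triangles) and VS saline mice (green circles, mostly the same mice as DS saline). In DS saline mice 32 of 36 lie below 0, in DS ethanol mice 30 and in VS saline mice 35.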

How the data were processed

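Poly(A) RNA from cored mouse tissue was sequenced, and the study's methods give the same library kit and sequencer for all DS and VS libraries. The sample titles and library names hold no batch, so whether acute and chronic libraries were prepared together is not known here. According to the submitters' processing notes the authors used bcl2fastq, cutadapt 5.0, STAR 2.7.10a and featureCounts 2.0.6 on GRCm39. The deposited table holds raw read counts per gene, which the authors did not normalize. Counting was by exon, strand-aware, with overlapping and multimapping reads kept, and mates appear to be counted singly: of the counts from 1 to 19, 85.8% to 91.7% were even in these 6 libraries, so 1 fragment gives about 2 counts. The even share was 90.1% to 91.7% in the acute and 85.8% to 88.6% in the chronic libraries, without overlap. The part of this library difference in the results was not tested. Halving the counts was tried.

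Genes on chromosomes 1 to 5 and 10 to 19 with at least 5 counts in at least 2 libraries of a group were fitted with edgeR 4.0.16 (TMM, quasi-likelihood F test, Benjamini-Hochberg adjustment, adjusted p under 0.1) in R 4.3.3. CPM were computed from TMM-scaled totals of these chromosomes, and the SE is the log2 fold change divided by the square root of F. DESeq2 1.42.0 was the alternative. Scripts were tested on simulated data. Tables and figures used pandas 2.3.3, numpy 2.4.6 and matplotlib 3.10.9 in Python 3.11.15.

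Replicates are separate mice per the labels. Both groups have mice numbered 2 and 6, but the labels do not say that a number marks a shared litter or day. Deviations of same-numbered libraries from their group means correlated at 0.015 and 0.038, and the main test has no block. So few libraries cannot exclude a shared litter or day. Named genes were the 5 of lowest p in each direction with a mean of at least 1 CPM, the leading member of each of 33 gene lists, 16 genes whatever their values and the 3 of lowest p among differences between comparisons. Further members of the lists and of cilium families were named after their values were seen. The members and lists were chosen with earlier results of these data known, and no set test was run. Gene positions come from the GRCm39 annotation. Promoters come from the RefSeq table (GRCm38.p6), with windows matched again on the GRCm39 genome.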

Additional observations from a re-analysis of the deposited data

Results flagged for a closer look

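Trpm3, Sulf1 and Cpne6 differed between DS and VS in their saline comparison of 10 against 1 injection, by the edgeR test of the difference itself with the mouse as a term. That difference is carried by the 5 mice that gave both regions, of which mice 3 and 6 were the chronic ones. The log2 difference, DS minus VS, was 1.80 for Trpm3 (adjusted p = 0.00275), 1.90 for Sulf1 (0.025) and 1.71 for Cpne6 (0.025). Trpm3 and Sulf1 were high in the DS libraries of chronic mice 3 and 6, which also had the highest choroid plexus sums among the saline DS libraries, while Cpne6 was above all acute libraries in chronic mouse 2 as well (82.1 CPM, against 53.3 to 65.2 CPM). The part of choroid plexus tissue in these differences was not tested.

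Of the genes on chromosomes 6 to 9, X, Y and MT, which the tests of 6 libraries leave out, 161 of 5267 were called by edgeR without chronic mouse 2, with 104 higher and 57 lower after 10 saline injections. That is 3.06% of the genes tested there, beside 3.22% on the chromosomes used, and Egr4 and Junb were among the lower ones.

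The summed level of the unfolded protein response genes in the 4 chronic ethanol mice of DS had 1 library far from the others, with the highest sum at 2684 CPM. It was 1 of 47 groups of 4 libraries examined, and chance alone marks about 1 in 20.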

How the results depend on the processing

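Over 21 alternatives between 18 and 27 activity-induced genes were lower at an unadjusted p under 0.05, beside 22 as reported. For DS saline the count of genes called at an adjusted p under 0.1 was 117 with DESeq2, 442 with no low-count filter and 618 with all chromosomes and 2 chronic libraries, and it ranged from 0 to 627 when a library was left out (0 to 464 in edgeR, and in DESeq2 67, 33 and 14 without acute mouse 2, 4 or 6 and 627, 82 and 115 without chronic mouse 2, 3 or 6). Ependymal genes higher at an unadjusted p under 0.05 numbered 8 with all chromosomes, and choroid plexus genes 11 there and 3 to 7 without a library. DESeq2 with a library left out and halved counts were chosen after seeing the data. For DS ethanol the calls were 14 with DESeq2, 23 with no low-count filter and 0 to 4 without a library. For the difference between saline and ethanol they were 33 with no low-count filter, for VS saline 18 with DESeq2, 104 with no low-count filter and 0 to 15 without a library, and for the difference between DS and VS 46, 447, 10 with at least 10 counts in every library and 0 to 381 without a library. The causes were not tested.

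Deviations of same-numbered saline DS mice correlated at 0.015 and 0.038, which cannot exclude a shared litter or day. The replicate block is therefore given as an alternative. With it, DS saline gave 100 calls (56 higher and 44 lower), 24 activity-induced, 3 ependymal and 7 choroid plexus genes, and DS ethanol 3 calls. Without the mouse as a block the difference between DS and VS gave 0 calls. VS saline shares number 6 only, so no block fit was made. Under the block the log2 fold change turned sign for Npas4 (-0.0638), Bdnf (-0.289), Penk (0.0553) and Ppp1r1b (0.119).

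Other sign changes were all of values near 0 against their SE, and none was called. Npas4 was at -0.0112 with DESeq2 and with its size factors in edgeR, -0.0144 with no filter, -0.0055 with at least 10 counts, -0.0094 with halved counts, -0.027 with a GC and length trend removed, -0.0171 with all 4 DS groups in 1 fit and -0.0898 to 0.1335 without a library in edgeR, with -0.0916, -0.0973 and -0.0827 without acute mouse 2, chronic mouse 3 and chronic mouse 6 in DESeq2. Sgk1 was at 0.0829 with all chromosomes, and in DESeq2 at 0.205 without acute mouse 6 and 0.0834 without chronic mouse 2. In DESeq2 Bdnf was at -0.159 without acute mouse 4, and without chronic mouse 3 Pdyn was at -0.0431 and Ppp1r1b at 0.0184. Leaving out a library in edgeR gave -0.1584 to 0.514 for Bdnf, -0.3011 to 0.2043 for Sgk1, -0.0356 to 0.435 for Pdyn, -0.2146 to 0.0261 for Ppp1r1b, -0.291 to 0.532 for Sulf1 in VS, and for the saline-minus-ethanol difference -0.669 to 0.172 for Arc and -0.0648 to 1.74 for Fos. Of the other values of named genes, 1618 kept direction and side of the threshold, 307 passed it and 19 no longer did. Maff, at about 1 CPM, was the activity-induced gene with the largest SE (0.63).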
